A study of Oryza sativa with 35 samples.

Results

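NIL-Gn1 and the cultivar Koshihikari were compared in rice inflorescence meristems of tissue code R1, across every locus with enough counts. The comparison takes all libraries labelled R1, 8 of NIL-Gn1 and 5 of Koshihikari, which are 13 of the 35 libraries of the series. Koshihikari is a japonica rice cultivar, and the name NIL-Gn1 stands for a line made near-isogenic at the grain number locus Gn1. The labels give the cultivar, a tissue code and a replicate number; they do not say which Gn1 allele the line carries, how much other donor genome it holds, what R1 stands for, how old the plants were, or whether a library came from 1 plant or a pool. Plants of both lines were grown in climate chambers in short days of 10 h light and 14 h dark, and no treatment is named. Each library was made from 100 pg of RNA with CEL-Seq2, which sequences the 3′ ends of transcripts and counts each captured molecule once by its unique molecular identifier (UMI). The labels name no separate plants for the libraries of a line; the p-values here therefore rest on a spread between libraries that may be technical in part or in whole.

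The inflorescence meristem is the growing tip that forms the panicle. It produces branch meristems and later spikelet meristems, and the time spent making branches bears on how many grains a panicle carries. The gene at Gn1, OsCKX2, encodes a cytokinin oxidase, an enzyme that breaks down cytokinins, the hormones that keep meristem cells dividing. The zinc finger protein DST is known to activate OsCKX2 in reproductive meristems of rice, and a receptor kinase and MAP kinase cascade acts on DST.

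Koshihikari R1 libraries held 107930 to 249016 UMIs (median 124357) and NIL-Gn1 R1 libraries 129873 to 375071 (median 142448). The groups held 756267 and about 1492220 UMIs in all, so pairs of raw UMI counts given below are not on 1 scale. A count of 0 in a library, taken as allowing up to 3 counts, allowed 8.00 to 27.8 CPM (UMIs scaled to a common library size). Of 21973 loci with a UMI at R1, 7406 passed the filter on low counts and held 86.4% of the R1 UMIs. The filter ran over all 35 libraries, so a locus could pass on the counts of 1 library of any tissue code. With the R1 libraries alone 3554 loci passed, among them 33 of the 50 loci called below. Of the meristem genes taken as markers of the labelled tissue, OSH1, TAW1 and RFL each had UMIs in every R1 library. The summed level of OSH1, OSH15, TAW1 and RFL ran from 1461 to 1660 CPM in Koshihikari and from 1066 to 1667 CPM in NIL-Gn1. TAW1, with means of 934 and 839 CPM, was the largest part of that sum. On a principal component plot of the R1 libraries alone (3893 loci), the first component held 15.7% of the variance and set the lines apart. Koshihikari replicate 2 stood alone on the second component (11.8%) and NIL-Gn1 replicate 8 on the third (10.3%), and counts are given below without them.

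Few loci were called between the lines. An edgeR quasi-likelihood fit called 50 of 7406 tested loci (0.675%) at a Benjamini-Hochberg adjusted p under 0.05, of which 14 (0.189%) were higher and 36 (0.486%) lower in NIL-Gn1. At an unadjusted p under 0.05 in the same fit there were 778 of the 7406 loci, and how many loci differ in truth was not estimated. The higher loci were 1.66- to 15.2-fold higher in the fit, with a median of 3.23-fold. The lower loci were 1.43-fold lower or more, with a median of 2.43-fold. Of the lower loci, 2 had 0 UMIs in all NIL-Gn1 libraries, and the largest fold among the rest was 11.4. Over all tested loci the median log2 fold change was 0.01. limma-voom called 124 loci, thinning every library to the smallest total left 22 calls, and without Koshihikari replicate 3 there were 23 lower loci. The fit on the R1 libraries alone called 69 of 3554 tested loci, 32 of them among the 50. With Koshihikari replicate 2 and NIL-Gn1 replicate 8 both left out, 44 loci were called, 36 of them among the 50.

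**Figure D1:**
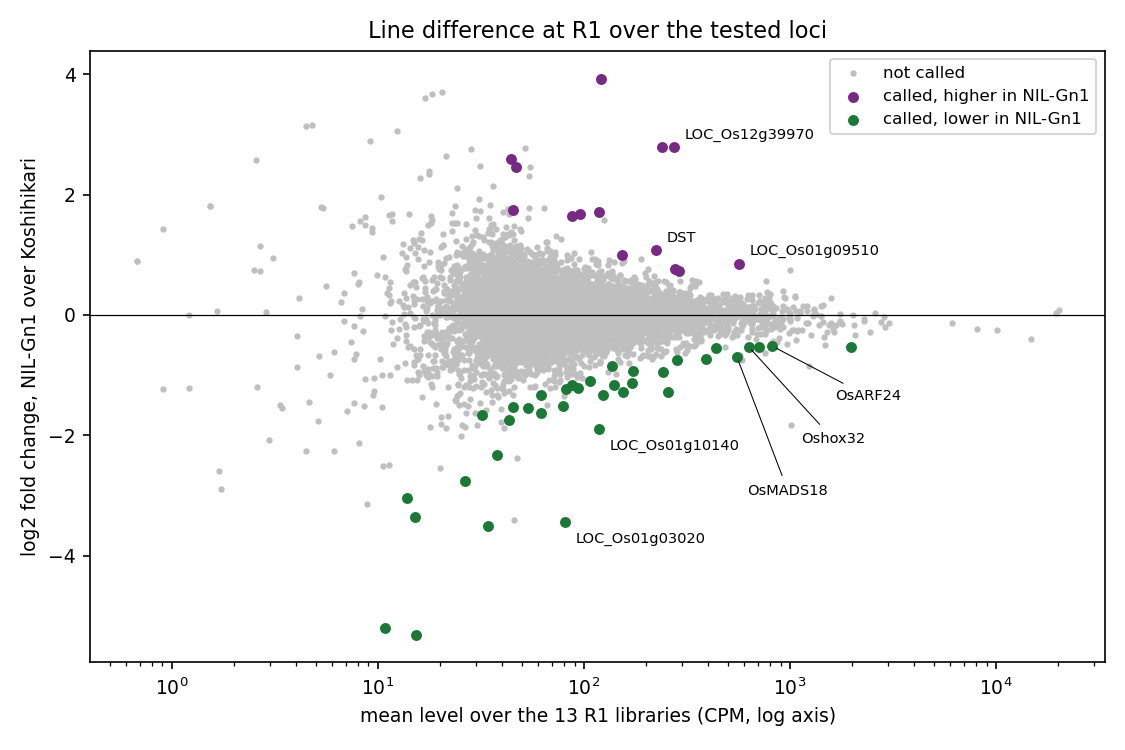
Log2 fold change of NIL-Gn1 over Koshihikari at R1 (y) against the mean level over the 13 R1 libraries in CPM (x, log axis), 1 point for each of 7406 tested loci. Purple points are the 14 loci called higher and green points the 36 called lower in NIL-Gn1; grey points were not called.

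The precision of the fit and the size of the called differences changed with level. Among the 2409 loci with a mean under 50 CPM the median standard error (SE) of the log2 fold change was 0.466, and the smallest called change was 1.53 in size (13 called, 0.54%). Among the 978 loci at 200 CPM or more the median SE was 0.179, the smallest called change 0.52 and 16 loci were called (1.64%). Between these, 21 of 4019 loci were called (0.523%). Of the 338 loci with an estimate of at least 2-fold, 303 were not called, and their median level was 31.3 CPM against 118 CPM for the called loci. Under 50 CPM no estimate as small as 2-fold was called, and how many of the 303 loci differ in truth was not tested. The call nearest the threshold had an adjusted p of 0.0488 and the first locus beyond it 0.0505.

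Separation of single libraries was also counted. The CPM ranges of the lines did not overlap at 79 of the 7406 tested loci (1.07%), with NIL-Gn1 above at 26 (0.351%) and below at 53 (0.716%). Of the 50 called loci 27 had ranges that did not overlap, 7 higher and 20 lower in NIL-Gn1. In 3 called loci a single library held over 50% of the UMIs of the line with the higher level: 1 locus higher in NIL-Gn1, through replicate 4, and 2 lower, through Koshihikari replicates 2 and 5.

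**Figure D2:**
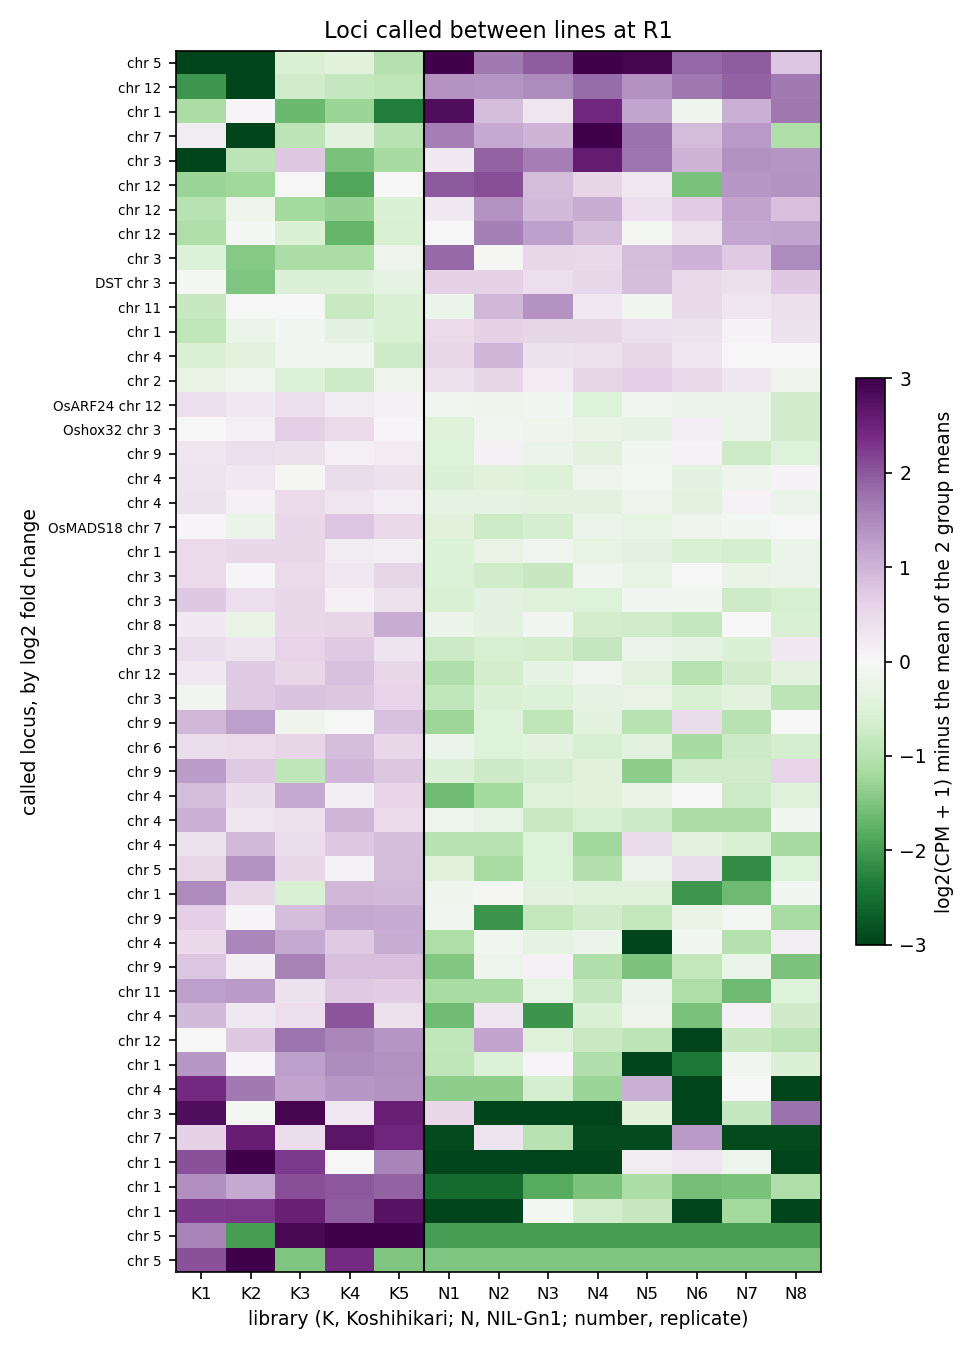
Log2(CPM + 1) of the 50 called loci (rows, ordered by log2 fold change and labelled by chromosome) in the 13 R1 libraries (columns), each row less the mean of its 2 group means; colours end at 3 in either direction. Most rows change colour at the black line between Koshihikari (K) and NIL-Gn1 (N), and some rows near the top and bottom hold single libraries that go against their line.

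OsCKX2 (LOC_Os01g10110) itself was too weak to compare. It had 1 UMI in Koshihikari R1, in replicate 3, and 0 UMIs in the 8 NIL-Gn1 R1 libraries, which allows up to 2.01 CPM over that group. An exact two-sided permutation test over 1287 assignments gave p = 0.385, and with a UMI in only 1 library it could not have gone below 0.05. The line labels could not be checked through this gene. Around it on chromosome 1, in the order of the locus numbers, 1 of the 20 nearest tested loci was called, against 0.675% of all tested loci. This was LOC_Os01g10140, which lies 3 loci from OsCKX2 in the deposited table. The tested locus between them had a log2 fold change of -1.87 (SE 0.566, edgeR adjusted p = 0.109) and was not called. The median log2 fold change of these 20 loci was -0.12. Of the 20, 11 were below 0, where 51.7% of all tested loci were above 0.

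DST (LOC_Os03g57240), the activator of OsCKX2 named above, was higher in NIL-Gn1. The Koshihikari libraries read 180, 65.4, 128, 129 and 147 CPM in replicates 1 to 5, and the NIL-Gn1 libraries had a lowest level of 243, a median of 280.0 and a highest of 343 CPM. Every NIL-Gn1 library lay above every Koshihikari library, and Koshihikari replicate 2 was the lowest of all. The means were 282 ± 32.9 CPM (SD, n = 8) and 130 ± 41.7 CPM (n = 5), a log2 fold change of 1.08 (SE 0.212, edgeR adjusted p = 0.00087). The call was kept in all 24 alternative fits. In bulk tissue a change in the share of cells that use a gene and a change in its level per cell cannot be told apart, here and in every result that follows.

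At R2, the next tissue code, the same gene showed no such gap. Its R2 log2 fold change was 0.01 (SE 0.215), with 202 ± 20.3 CPM (n = 5) in Koshihikari and 204 ± 62.2 CPM (n = 8) in NIL-Gn1. Koshihikari was thus lower at R1 than at R2 and NIL-Gn1 higher, in means that were not tested against each other. The test of the difference between the R1 and R2 line differences gave an unadjusted p of 0.00062 and an adjusted p of 0.419 in the edgeR fit, so that a change of the DST difference between R1 and R2 did not pass.

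The other tested genes of the DST route were not called. OsER1, the receptor kinase at its head, had a log2 fold change of 0.02 (SE 0.204), OsMKK4 of 0.05 (SE 0.256) and OsMKKK10, the kinase above OsMKK4, of -0.20 (SE 0.280). These levels lay within the spread of the libraries in both lines. Of 7 listed grain number genes of this kind 6 were used, 4 passed the filter and DST alone was called. OsMPK6, a MAP kinase gene of the list, was dropped because the RefSeq table placed its symbol on another chromosome. The MAP kinase phosphatase gene GSN1 had 13 UMIs in Koshihikari and 49 in NIL-Gn1 and was not tested. The groups held 756267 and about 1492220 UMIs in all.

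**Figure D3:**
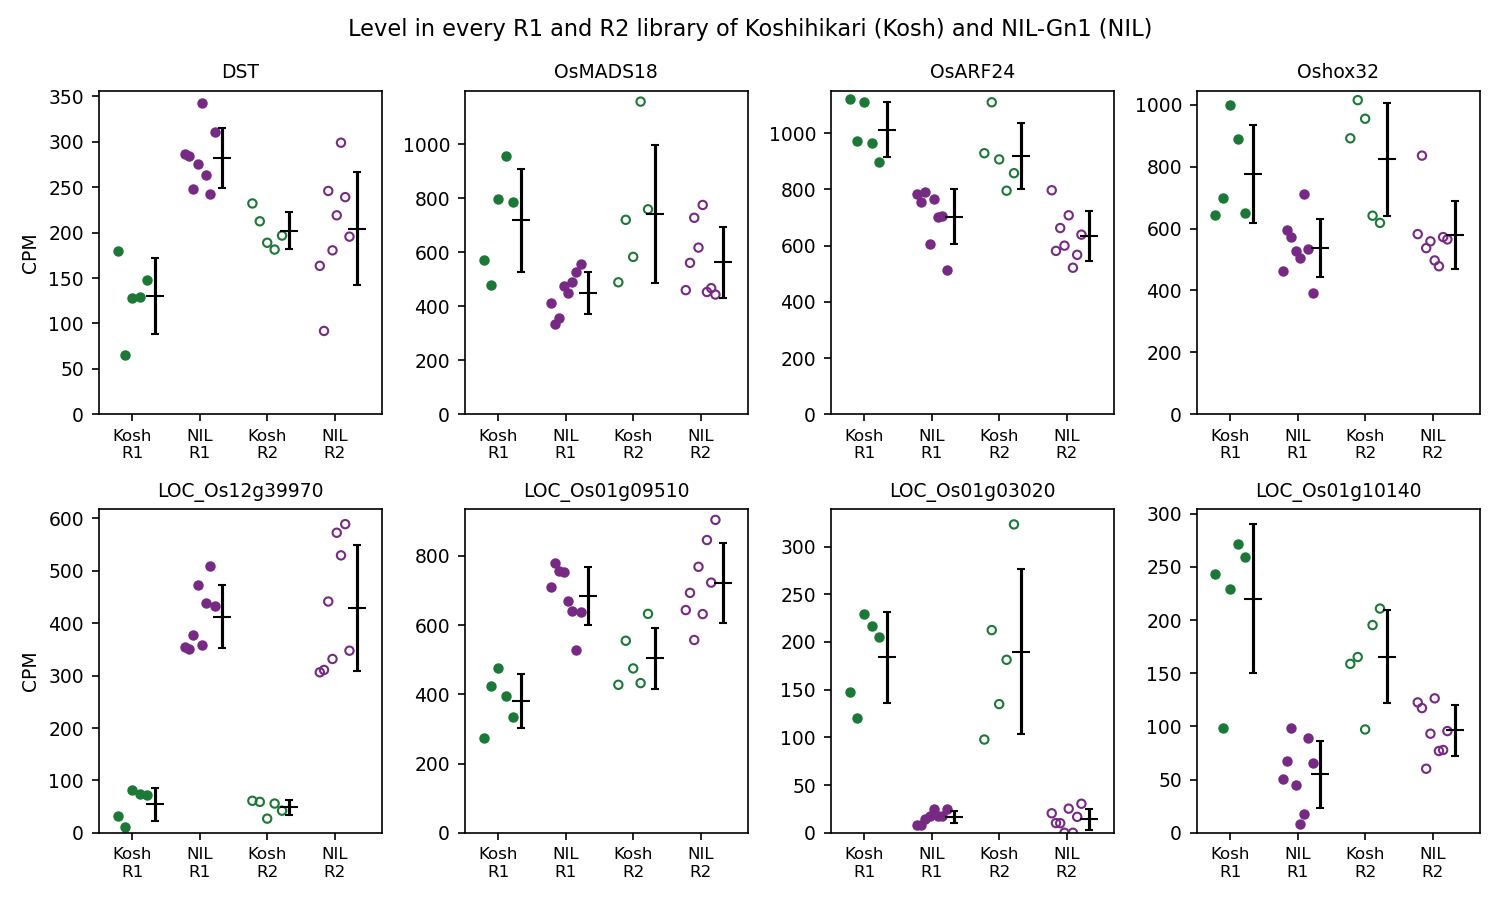
CPM in each library of Koshihikari (green) and NIL-Gn1 (purple) at R1 (filled) and R2 (open) for the 4 called list genes and the 4 other loci given by identifier; dashes and bars are mean and SD, and libraries are set side by side in replicate order. At R1 the lines do not overlap for DST, OsARF24 and the 4 loci of the lower row, and they overlap for OsMADS18 and Oshox32.

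OsMADS18 (LOC_Os07g41370), which promotes the floral transition and belongs to the APETALA1 and FRUITFULL type of MADS-box genes, was lower in NIL-Gn1. Koshihikari replicates 1 to 5 read 571, 480, 798, 957 and 785 CPM, and NIL-Gn1 libraries ran from 335 through a median of 461 to 555 CPM. Koshihikari replicate 2 fell inside the NIL-Gn1 range, and the other Koshihikari libraries lay above it. The means were 718 ± 191 CPM (SD, n = 5) and 450 ± 78.3 CPM (n = 8), a log2 fold change of -0.70 (SE 0.158, edgeR adjusted p = 0.00947). Without Koshihikari replicate 4 the adjusted p was 0.108, and with all libraries thinned to the smallest total it was 0.101.

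The other MADS genes of the floral transition list were not called, and 5 of its 6 tested members had a log2 fold change below 0, with a list median of -0.57. OsMADS14, a close relative of OsMADS18, was at 137 ± 63.0 CPM in Koshihikari and 73.8 ± 50.2 CPM in NIL-Gn1 (log2 fold change -1.05, SE 0.435, adjusted p = 0.359). OsMADS15, of the same type, had -0.44 (SE 0.535), and OsMADS34, which acts in panicle branching, -1.07 (SE 0.805) on 10 and 8 UMIs. OsMADS22, which acts in spikelet meristems, had -0.13 (SE 0.154). OsMADS50, a flowering activator of the SOC1 type, was the exception in sign at 0.90 (SE 0.470, adjusted p = 0.496). Its 18 and 63 UMIs give an error too wide to separate it from 0 after adjustment.

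OsARF24 (LOC_Os12g29520), a member of the auxin response factors that bind the promoters of auxin-regulated genes, was lower in NIL-Gn1. It read 1121, 970, 1110, 964 and 897 CPM in Koshihikari replicates 1 to 5, against 515 (lowest), 729 (median) and 791 CPM (highest) in NIL-Gn1. The ranges did not overlap. The log2 fold change was -0.52 (SE 0.129, edgeR adjusted p = 0.0210), from 1012 ± 98.3 CPM (SD, n = 5) to 703 ± 97.2 CPM (n = 8). At R2, in other libraries, it was lower in NIL-Gn1 by nearly the same amount (log2 fold change -0.54, SE 0.134). The R1 call is close to the threshold: it was lost in 8 of 24 alternative fits, 4 of which left out 1 library. The adjusted p was 0.0909 without Koshihikari replicate 1 and 0.0827 without replicate 3, and it was 0.0557 and 0.0635 without NIL-Gn1 replicates 4 and 8.

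Of the 13 tested auxin response factors 1 was lower and 12 were not called, with 8 below 0 and a list median of -0.12. Of 18 tested genes of auxin synthesis, transport and Aux/IAA repression none was called (edgeR; 2 had an unadjusted p under 0.05), and their median was 0.14. The smallest p there belonged to OsIAA3, an Aux/IAA repressor of auxin response, at 470 ± 40.9 CPM in Koshihikari and 368 ± 89.6 CPM in NIL-Gn1 (log2 fold change -0.33, SE 0.157, adjusted p = 0.435). OsIAA13, of the same family, had 0.99 (SE 0.483, adjusted p = 0.447) on 12 and 49 UMIs. OsAFB2, an auxin receptor and the most abundant of them by UMIs, had -0.20 (SE 0.139).

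Oshox32 (LOC_Os03g43930), a class III homeodomain-leucine zipper gene, was lower in NIL-Gn1; genes of this class set the upper side of lateral organs and help form meristems in Arabidopsis. Koshihikari replicates 1 to 5 read 645, 698, 1000, 889 and 652 CPM, and NIL-Gn1 libraries ran from 392 through a median of 530 to 711 CPM. Only NIL-Gn1 replicate 6 lay inside the Koshihikari range. The log2 fold change was -0.53 (SE 0.141, edgeR adjusted p = 0.0432), from 777 ± 159 CPM (SD, n = 5) to 537 ± 94.1 CPM (n = 8), and -0.52 at R2 (SE 0.143, adjusted p = 0.0575). This is the least stable of the named calls, lost in 13 of 24 alternative fits, of which 8 left out a single library (Koshihikari replicate 3 or 4, or NIL-Gn1 replicate 1, 3, 4, 5, 7 or 8). The other 3 tested genes of the class were not called: Oshox9 had -0.07 (SE 0.217), Oshox10 0.20 (SE 0.214) and Oshox33 0.11 (SE 0.194).

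In all, 140 of 265 listed genes of panicle development, hormones, growth and marker groups passed the filter. Of these 4 were called (2.86%, against 0.675% of all tested loci), 1 higher and 3 lower, and 19 had an unadjusted p under 0.05. Their median log2 fold change was -0.04 against 0.01 over all tested loci. The lists were chosen with earlier results of these data known, so the 2.86% is not independent of those results. Among all tested loci at 200 CPM or more 1.64% were called, and an excess of calls in the lists was not tested.

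**Figure D4:**
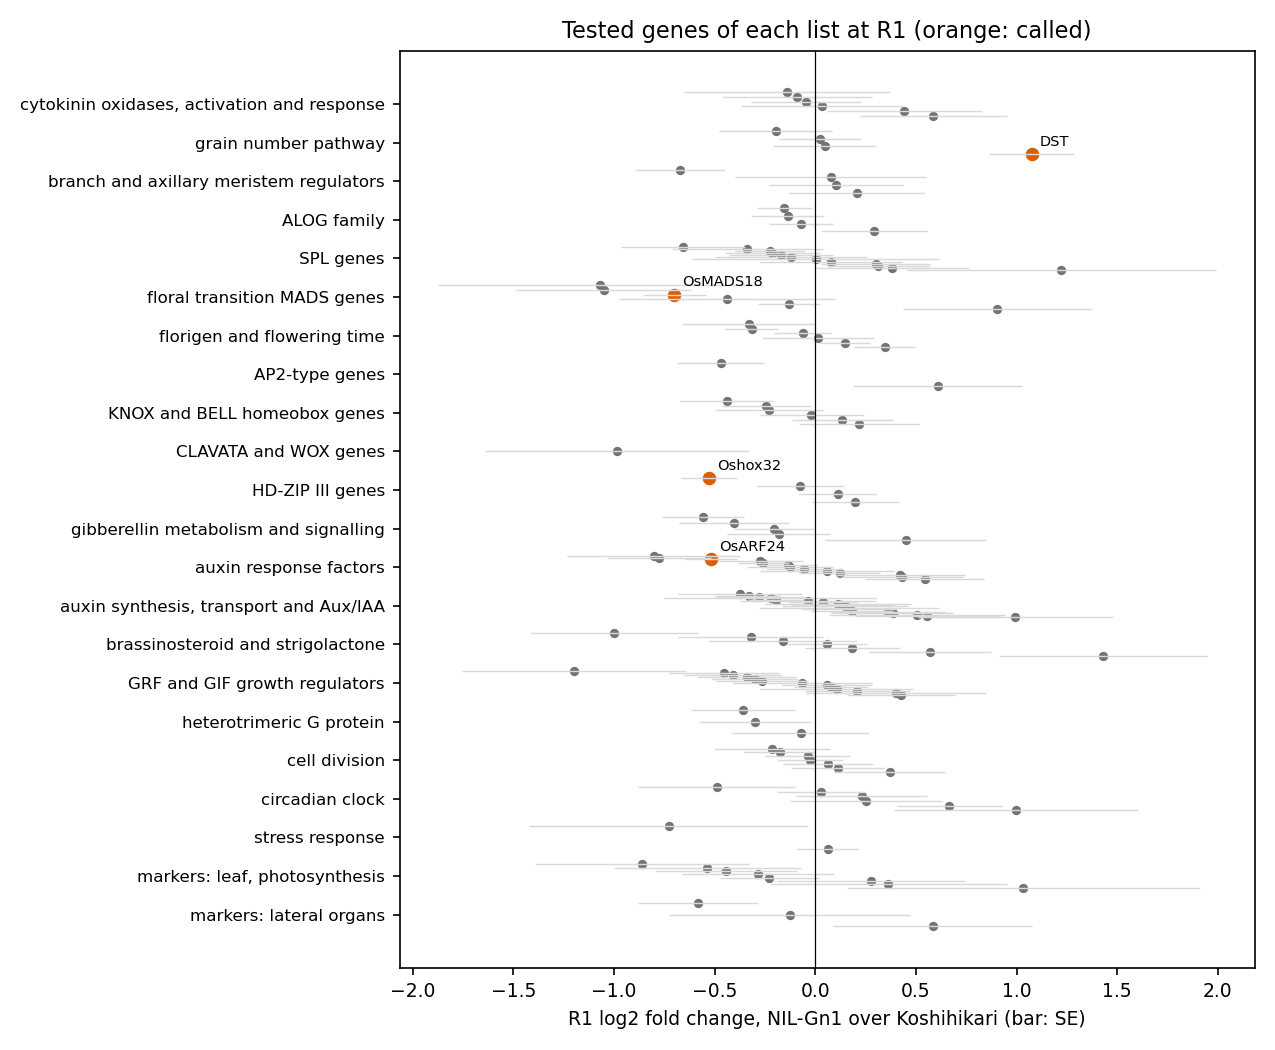
Log2 fold change at R1 (x, bars are SE) of every tested gene in each list (y). Orange points are the 4 called genes; the other tested list genes are grey and lie on both sides of 0 in most lists.

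Among branch and axillary meristem regulators, 0 of 4 tested genes were called by edgeR (1 had an unadjusted p under 0.05), and 7 more were too weak to test. RFL, the rice LEAFY homologue, which delays the switch from branch to spikelet formation, had the smallest p. It was at 222, 164, 174, 258 and 219 CPM in Koshihikari and at 79.0 (lowest), 136 (median) and 177 CPM (highest) in NIL-Gn1. Of the NIL-Gn1 libraries 7 lay below every Koshihikari library, and replicate 1 did not. The log2 fold change was -0.67 (SE 0.224, adjusted p = 0.156), and -0.07 at R2. DEP2, which acts in panicle elongation, had 0.21 (SE 0.338), and LAX2 and FZP, which act in axillary meristems and in spikelet identity, had 0 UMIs in both lines at R1.

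TAW1, the ALOG gene that holds meristems in the branching phase, was the most abundant of its family at 934 ± 85.0 CPM in Koshihikari and 839 ± 120 CPM in NIL-Gn1 (log2 fold change -0.15, SE 0.136, adjusted p = 0.740). G1L4, of the same family, had 0.29 (SE 0.263), and none of 4 tested ALOG genes was called (edgeR, also 0 at an unadjusted p under 0.05). Among 12 tested SPL transcription factors, many of which time phase changes under miR156, none was called, with 1 at an unadjusted p under 0.05. That 1 was OsSPL14, known for its effect on panicle branching, at 256 ± 51.8 CPM in Koshihikari and 165 ± 81.7 CPM in NIL-Gn1 (log2 fold change -0.66, SE 0.307, adjusted p = 0.444). Its NIL-Gn1 libraries spread from 33.5 to 286 CPM. OsSPL10 had 1.22 (SE 0.768) on 8 and 39 UMIs, and OsSPL13, the most abundant at 758 ± 74.1 and 661 ± 174 CPM, had -0.22 (SE 0.174).

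Meristem maintenance genes were not called. Among 6 tested KNOX and BELL homeobox genes, which keep meristem cells undifferentiated, 4 were below 0 and 0 had an unadjusted p under 0.05. OSH6 had -0.44 (SE 0.231, adjusted p = 0.501) and OSH1, the main KNOX gene of the shoot meristem, -0.24 (SE 0.220) at 288 ± 103 and 241 ± 77.5 CPM. FON1, the CLAVATA1-type receptor that limits meristem size, was the only tested member of its list at -0.98 (SE 0.655) on 19 and 18 UMIs, so its level could not be told apart between lines. Of the AP2-type genes, SNB, which acts in the spikelet meristem, had -0.47 (SE 0.216, adjusted p = 0.412) and SHAT1, known for seed shattering, 0.61 (SE 0.422, adjusted p = 0.648).

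Flowering-time genes gave small differences. Of 6 tested members none was called by edgeR and 2 had an unadjusted p under 0.05, both 14-3-3 proteins, of the family that joins florigen to its partners in the nucleus. GF14c was at 863 ± 98.5 CPM in Koshihikari and 694 ± 88.7 CPM in NIL-Gn1 (log2 fold change -0.32, SE 0.132, adjusted p = 0.332). GF14d went the other way, with 408 ± 70.6 and 511 ± 81.9 CPM (0.34, SE 0.151, adjusted p = 0.375), and GF14f, the most abundant, had 0.15 (SE 0.123). Among 6 circadian clock genes none was called and 5 were above 0. OsPRR37, a pseudo-response regulator of the clock that represses flowering in long days, was at 100.2 ± 53.7 CPM in Koshihikari and 154 ± 26.6 CPM in NIL-Gn1 (0.67, SE 0.261, adjusted p = 0.281). OsPRR59, a relative, had 1.00 (SE 0.606) on 11 and 46 UMIs. OsGI, the most abundant clock gene, varied widely between libraries of each line, with 303 ± 163 and 328 ± 144 CPM (0.25, SE 0.378); the time of day of sampling is not in the labels.

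Hormone genes beyond auxin were not called at R1 either. Of 23 listed genes of cytokinin breakdown, activation and response 6 passed the filter, 3 on each side of 0, and 0 had an unadjusted p under 0.05. The cytokinin oxidase OsCKX11 had 0.59 (SE 0.363, adjusted p = 0.604) at 45.4 ± 12 and 69.1 ± 14.9 CPM, and OsCKX3 had 0.44 (SE 0.385). OsRR2, a type-A response regulator that cytokinin induces, had -0.05 (SE 0.273) at 99.6 ± 29.6 and 102 ± 34.5 CPM. Of 5 tested gibberellin genes 4 were below 0. OsGA20ox1, which makes gibberellin precursors, was at 295 ± 116 CPM in Koshihikari and 202 ± 54.3 CPM in NIL-Gn1 (-0.56, SE 0.202, adjusted p = 0.228); at R2 it was called lower in NIL-Gn1, at 364 ± 110 and 171 ± 41.9 CPM (log2 fold change -1.10, SE 0.207, edgeR adjusted p = 0.000739), and the test of the difference between R1 and R2 gave an adjusted p of 0.831. OsGA2ox6, which inactivates gibberellin, had -0.40 (SE 0.272).

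Of 7 tested brassinosteroid and strigolactone genes 2 had an unadjusted p under 0.05. D53, the repressor that strigolactone signalling removes, had 1.43 (SE 0.518, adjusted p = 0.228) on 12 and 67 UMIs, and D14, the strigolactone receptor, -1.0 (SE 0.417, adjusted p = 0.330) on 45 and 40 UMIs. Both rest on few molecules, and neither was called. OsBRI1, the brassinosteroid receptor, had 0.06 (SE 0.199) at 195 ± 46.9 and 205 ± 49.2 CPM.

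No growth or division gene was called between the lines. All 13 GRF and GIF growth regulators passed the filter and none was called by edgeR, with 1 (OsGRF12) at an unadjusted p under 0.05 and a median of -0.06. OsGRF12 had -1.20 (SE 0.556, adjusted p = 0.415) on 31 and 24 UMIs, OsGRF3 had -0.41 (SE 0.242), and OsGRF7, the most abundant, 0.08 (SE 0.185). Of 7 tested cell division genes none was called and 0 had an unadjusted p under 0.05. CycB2-1, a mitotic cyclin, had 0.37 (SE 0.275), CDKB2, a mitotic kinase, -0.18 (SE 0.177) and OsPCNA, the sliding clamp of DNA replication, -0.02 (SE 0.164) at 387 ± 70.0 and 378 ± 74.2 CPM. Their list median was -0.02. The 3 tested heterotrimeric G protein genes, which act in panicle and grain size, were all below 0 and not called (0 at an unadjusted p under 0.05), among them RGB1, the beta subunit, at -0.36 (SE 0.259) and DEP1, a gamma subunit known for dense erect panicles, at -0.30 (SE 0.279). Of the 2 tested stress genes, ADH1, induced by low oxygen, had 0.06 (SE 0.153) and HSP101, a heat shock chaperone, -0.73 (SE 0.693) on 16 and 19 UMIs.

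Markers of other tissue were present at levels that varied between libraries of both lines. The summed level of the 12 leaf and photosynthesis markers ran from 444 to 889 CPM in Koshihikari and from 312 to 1305 CPM in NIL-Gn1, with the ranges overlapping. The Rubisco genes RbcS2, RbcS3 and RbcS4, which define green leaf, had 1 to 6 UMIs per line. Among the 8 tested, Lhcb-b, a light-harvesting protein, was the most abundant at 192 ± 59.3 and 165 ± 119 CPM (-0.28, SE 0.378), Lhcb-c had -0.86 (SE 0.532) and Lhca-a -0.44 (SE 0.351). The 5 markers of lateral organs summed to 349 to 677 CPM in Koshihikari and to 352 to 1470 CPM in NIL-Gn1. PLA1, a cytochrome P450 gene that paces leaf formation, accounted for the top of that range, at 1266 CPM in NIL-Gn1 replicate 8, and DL, which acts in carpels and the leaf midrib, had -0.58 (SE 0.299, adjusted p = 0.501). None of the 11 tested marker genes of leaf and lateral organs was called (edgeR, 0 at an unadjusted p under 0.05).

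Floral organ genes were near the limit of detection. The 12 markers summed to 10.9 to 52.9 CPM in Koshihikari and 16.9 to 92.1 CPM in NIL-Gn1, and OsMADS3, OsMADS4, OsMADS8, OsMADS13 and OsMADS58 were at 0 UMIs in all R1 libraries. OsMADS16 is the class B gene that specifies lodicules and stamens. It had 0 UMIs in the 5 Koshihikari libraries and 25 UMIs in 6 of the 8 NIL-Gn1 libraries. This is 4.22-fold higher against a floor of 3 counts over the Koshihikari group (exact 95% interval of Koshihikari over NIL-Gn1, 0 to 0.314). OsMADS16 did not pass the filter, and without a filter its edgeR adjusted p was 0.0659. At R2 it had 4 UMIs in Koshihikari and 23 in NIL-Gn1. OsMADS2, the other class B gene with UMIs, had 19 and 49 UMIs at R1, in groups of 756267 and about 1492220 UMIs, and was not tested. Whether the share of floral organ tissue in the libraries differed was not tested.

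Most called loci lay outside the listed genes, which make up only 140 of the 7406 tested loci. The deposited table names loci by MSU identifiers only, and no table used here pairs them with gene names, so that 46 of the 50 called loci (13 higher and 33 lower) have no name here. The 2 with the smallest p in each direction are given by identifier. LOC_Os12g39970, on chromosome 12, was the most clearly separated higher locus. It read 31.7, 10.9, 82.5, 74.7 and 71.4 CPM in Koshihikari replicates 1 to 5 and ran from 352 through a median of 405 to 509 CPM in NIL-Gn1. The lowest NIL-Gn1 library was thus far above the highest Koshihikari library, and the log2 fold change was 2.79 (SE 0.252, edgeR adjusted p = 9.06e-16). At R2 the gap was 3.21 on the same scale.

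LOC_Os01g09510, on chromosome 1 and 55 loci from OsCKX2 in the table, was higher from a strong base. Its Koshihikari libraries read 275, 425, 477, 394 and 335 CPM, and its NIL-Gn1 libraries 527 at the lowest, 689 at the median and 779 at the highest. No libraries of the lines overlapped, at means of 381 ± 78.6 CPM (SD, n = 5) and 684 ± 83.3 CPM (n = 8; log2 fold change 0.85, SE 0.147, edgeR adjusted p = 6.71e-05). At R2 it had 0.52 (SE 0.147, adjusted p = 0.0691).

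LOC_Os01g03020, also on chromosome 1 but 670 loci from OsCKX2, was the lower locus with the smallest p. It read 148, 120, 229, 217 and 205 CPM in Koshihikari and 8.38 (lowest), 17.7 (median) and 24.5 CPM (highest) in NIL-Gn1. The NIL-Gn1 group held 22 UMIs in all, in every library, against 128 in Koshihikari, and the log2 fold change was -3.43 (SE 0.333, edgeR adjusted p = 7.83e-15). At R2 it was -3.59.

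LOC_Os01g10140, the locus near OsCKX2, read 243, 98.1, 229, 271 and 259 CPM in Koshihikari and 8.16 (lowest), 58.0 (median) and 98.1 CPM (highest) in NIL-Gn1. Koshihikari replicate 2 was level with the highest NIL-Gn1 library to 3 digits, so that the ranges nearly touched, and the other Koshihikari libraries were far above it. The log2 fold change was -1.89 (SE 0.257, edgeR adjusted p = 5.03e-08), and -0.72 at R2 (SE 0.277, adjusted p = 0.25). These 4 loci and DST were among the 12 calls kept in all 24 alternative fits, and 18 of the 50 calls were kept in each of the 13 fits that left out 1 library.

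Some loci had UMIs in 1 line only. With at least 20 UMIs in the other line, 2 loci had none in NIL-Gn1 R1 and 8 had none in Koshihikari R1, among them OsMADS16. Of the 2, a locus on chromosome 5 had 24 UMIs in 4 libraries of Koshihikari (edgeR adjusted p = 0.0119). It was 15.8-fold lower in NIL-Gn1 against a floor of 3 counts over that group, with an exact 95% interval from 11.9-fold upward. Its call was lost in 7 of 24 alternative fits, in some of which the locus missed the filter and was not tested. They included the fit without Koshihikari replicate 5, which held 14 of the 24 UMIs. Over all tissue codes it had 11 UMIs in NIL-Gn1 and 69 in Koshihikari, so it was detected in NIL-Gn1 outside R1. The other, on chromosome 1, had 22 UMIs spread over every library of Koshihikari. It was 14.5-fold lower in NIL-Gn1 on the same floor, with an exact 95% interval from 10.8-fold upward. It missed the filter, and without a filter its adjusted p was 9.31e-05. Over the NIL-Gn1 libraries of all tissue codes it had 1 UMI against 41 in Koshihikari. None of the 8 loci at 0 in Koshihikari passed the filter, and without a filter their adjusted p ran from 0.0299 to 0.105, so that 1 was called. That locus, on chromosome 2, had 29 UMIs in 5 of the 8 NIL-Gn1 libraries, and its highest level was 76.7 CPM in replicate 4. It was 4.90-fold higher in NIL-Gn1 against a floor of 3 counts over the Koshihikari group (exact 95% interval of Koshihikari over NIL-Gn1, 0 to 0.268). At R2 it had 0 UMIs in Koshihikari and 3 in NIL-Gn1.

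The called loci lay on 11 of the 12 chromosomes, by locus number. Chromosome 12 had 7 calls among 412 tested loci (1.7%), 4 higher and 3 lower, and chromosome 4 had 9 among 622 (1.45%), 1 higher and 8 lower. Chromosome 9 had 5 calls among 397 (1.26%), all lower. Chromosomes 3 and 1, with 9 of 1082 (0.832%) and 8 of 1012 (0.791%), were near the 0.675% of all tested loci, while chromosome 2 had 1 call among 920 (0.109%) and chromosome 10 had 0 among 372. Within 10 tested loci of each other lay 6 pairs of called loci, made of 11 loci, and 4 pairs shared a direction, where 36 of the 50 calls were lower. Whether this is more than chance would give was not tested.

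The same loci were looked up at R2, whose 13 libraries (5 and 8) are not those of R1. Of the 50 loci 45 had the same sign at R2, 10 of 14 higher and 35 of 36 lower loci, where 57.4% of all tested loci did. There were 37 calls at R2 (0.5% of tested loci), and 10 loci were called at both, which is 20% of the R1 calls and 27.0% of the R2 calls; 1 was higher (R2 background 0.0675%) and 9 were lower (0.432%). Both comparisons come from 1 fit with a shared spread. Estimates at R2 were smaller in size for 13 of the 14 higher and 28 of the 36 lower loci, with medians of 0.36 and -0.64 against 1.69 and -1.28 at R1, where the loci had been picked for passing the test. A test of the difference between the R1 and R2 line differences called 0 of 7406 loci (0%); 446 had an unadjusted p under 0.05, the smallest adjusted p was 0.181, and DESeq2 and limma-voom also called 0. Of the 50 R1 calls 19 had an unadjusted p under 0.05 for this difference, DST among them. No locus was thus shown to differ between the lines at R1 alone.

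**Figure D5:**
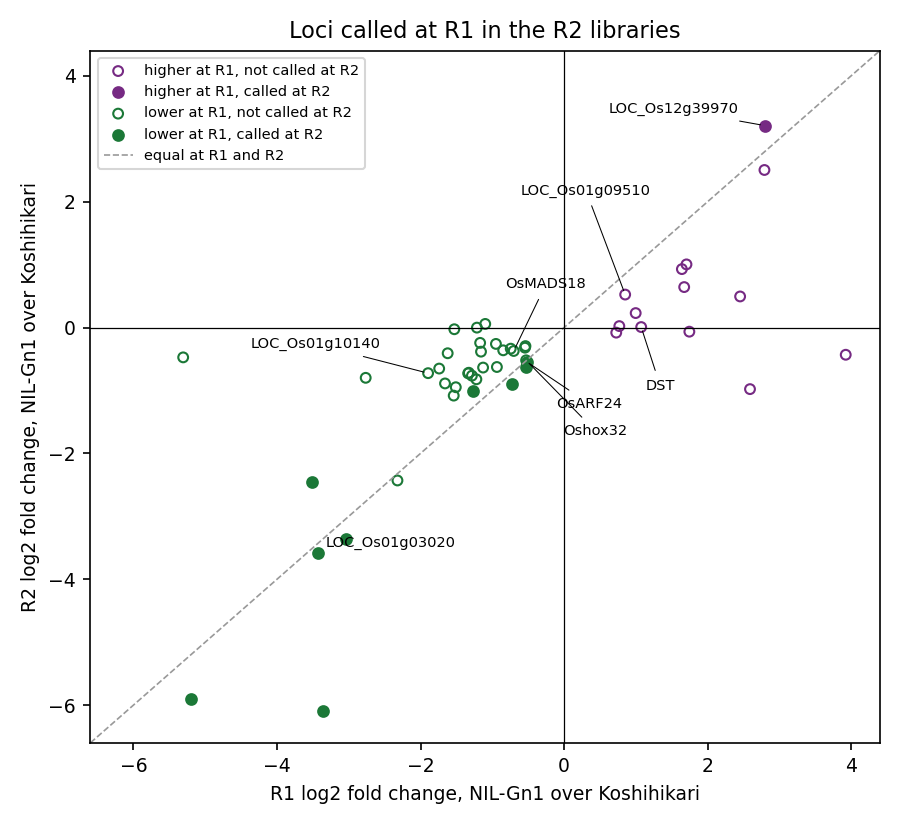
Log2 fold change of NIL-Gn1 over Koshihikari at R2 (y) against R1 (x) for the 50 loci called at R1; filled points were also called at R2, and the dashed line marks equal values. Of the lower loci (green) 35 of 36 lie below 0 at R2, of the higher loci (purple) 10 of 14 lie above 0, and DST lies near 0 at R2.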

How the data were processed

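UMI counts were deposited by the authors as 1 table, not normalized, for 55801 loci; Bowtie2 and Subread are named in the submitters' processing notes, without roles, and the genome build, annotation and use of strand are not given in the sources used here. Overlapping loci, antisense loci and near-identical copies may therefore share reads. Counts of all 35 libraries (8 groups of line and tissue code) were fitted in edgeR 4.0.16 under R 4.3.3 (TMM, filterByExpr, robust quasi-likelihood F-test), and p-values were adjusted by Benjamini-Hochberg over 7406 loci. CPM use TMM-scaled totals of the tested loci. Floors of 3 counts use raw totals and take the count of the other line as exact. The exact intervals are binomial and include counting error in both lines. Floors and intervals cover counting error only, not the spread between libraries. OsCKX2 was tested on log2(CPM + 1).

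The gene lists (286 genes, from general knowledge of rice) and all comparisons were chosen with earlier results of these data known. Of the listed genes 265 were used: 191 had the same chromosome and gene order in the RefSeq table (ASM3414082v1), and 74 symbols rest on the list alone, among them DST, TAW1, OsGA20ox1, SNB, DEP1, DEP2, D53, OsPRR59, OsAFB2, OsGA2ox6, OsER1, OsMKK4, OsMKKK10, GSN1 and the photosynthesis genes. The 15 placed on another chromosome and 3 in another order were dropped. Named were OsCKX2, DST, called list genes, the 2 unlisted loci with the smallest p in each direction, and of each other list the 2 smallest p and the most abundant gene; further members of the lists of DST, OsMADS18 and Oshox32, and LAX2, FZP, GSN1, OsMADS2 and the Rubisco genes, were named after their values were seen.

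Alternatives were RLE and upper quartile scaling, no filter, a mean of at least 10 counts, DESeq2 1.42.0, limma-voom (limma 3.58.1), only R1 or R1 and R2 libraries, thinning to the smallest total, leaving out each of 13 libraries, and a block for the replicate number; leaving out both libraries that stood apart was added after seeing the data. A call was counted as lost in a fit where its adjusted p was not under 0.05 or where the locus was not tested. Over 38 pairs of libraries no duplicate was found (chi-square per degree of freedom at least 1.39). The edgeR step was checked on simulated counts. Figures were made with matplotlib 3.10.9.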

Additional observations from a re-analysis of the deposited data

Results flagged for a closer look

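In 117 groups of libraries (each line at R1, for the named genes and loci, the loci with UMIs in 1 line only and the total UMIs, where not every library was at 0), the highest or lowest library was checked for a gap to the rest by Dixon's criterion, which chance meets in about 1 group in 20. It was met in 9 groups (7.69%). PLA1 stood at 1266 CPM in NIL-Gn1 replicate 8, where the next library had 515 CPM. GF14f stood at 1634 CPM in the same library, with the next at 1241 CPM. Lhcb-b stood at 432 CPM in NIL-Gn1 replicate 5, with the next at 204 CPM. OsRR2 stood at 152 CPM in Koshihikari replicate 5, with the next at 95.2 CPM, and OsSPL10 at 36.7 CPM in Koshihikari replicate 3, with the next at 10.9 CPM. LOC_Os01g10140 stood low, at 98.1 CPM in Koshihikari replicate 2, with the next at 229 CPM; its call was kept without that library. OsCKX2 stood at 9.17 CPM in Koshihikari replicate 3, which is its single UMI, with the other libraries at 0. Of the loci at 0 in Koshihikari, one on chromosome 1 stood at 59.1 CPM in NIL-Gn1 replicate 1, with the next at 24.5 CPM, and the one on chromosome 2 called without a filter at 76.7 CPM in NIL-Gn1 replicate 4, with the next at 33.5 CPM.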

How the results depend on the processing

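Against 50 calls (14 higher, 36 lower), limma-voom gave 124 (27 and 97), thinning every library to the smallest total 22 (7 and 15), and no filter 24 higher loci among 69. Leaving out 1 library gave 34 to 60 calls, 10 to 18 higher and 23 to 42 lower; the 23 came without Koshihikari replicate 3. RLE scaling gave 52, upper quartile scaling 47, DESeq2 42, and both doubtful libraries left out 44. Other fits tested fewer loci. Only R1 libraries gave 69 calls among 3554 tested loci, 32 shared with the 50. R1 and R2 libraries gave 49 among 4369, 39 shared, and a mean of at least 10 counts 40 among 3491, 34 shared. Every one of the 50 that could be tested kept its sign in each of the 24 fits. The R1 to R2 difference gave 0 calls in each setting run. Deviations of same-numbered libraries of the lines had correlations of -0.01 to 0.08 over 5 numbers. Koshihikari replicates 3 and 4 matched best with the NIL-Gn1 library of the same number, and replicates 1, 2 and 5 with another. Counting error weighs on these correlations, so they cannot exclude that the numbers pair the libraries. With the replicate block 57 loci were called (19 higher, 38 lower), 42 shared with the 50. Causes were not tested. Loci under 50 CPM had the largest median SE.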
